A study of Gallus gallus with 12 samples.

Results

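The genes described here are those of the unfolded protein response (UPR) and of the chaperones that fold proteins in the endoplasmic reticulum (ER), the cytosol and the mitochondria of chicken HD11 cells. They were taken by gene symbol from a list of 45 genes, and 42 of these had a row in the deposited table of 16161 genes. Of the 42, 28 encode ER proteins or regulators of ER folding and 14 encode cytosolic or mitochondrial chaperones and their regulators. ATF6, an ER stress sensor, SYVN1, an ER ubiquitin ligase, and HSF1, the main heat shock transcription factor of mammals, had no row under these symbols and were not analysed here as such. All 42 genes passed the filter on low counts in every comparison.

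HD11 is an established chicken macrophage-like cell line, here cultured as a single line at 41 °C. RNA was sequenced from cells given lipopolysaccharide (LPS, a bacterial cell wall component that activates macrophages) at 100 ng/mL for 6 h, from cells given Se-methylselenocysteine (SeMC, a selenium-containing amino acid) at 100 µM from about 12 h before the time at which LPS was added, and then PBS in place of LPS, and from Control cells given PBS. Each group had 3 libraries, and the labels do not say whether these came from separate cultures, so the p-values measure the spread between these libraries, which may be technical. The deposited counts of a further group, SeMC+LPS, were in each replicate the LPS and SeMC counts averaged and rounded down, in all 42 of these genes and in 16160 of the 16161 genes, and that group was left out.

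In the ER, newly made secreted and membrane proteins are folded by the HSP70 family chaperone BiP (HSPA5) and its J-domain partners, by the lectin chaperones calnexin and calreticulin and by disulphide isomerases, and proteins that fail to fold are moved back to the cytosol and degraded (ER-associated degradation, ERAD). When unfolded proteins accumulate, the sensors IRE1 (ERN1), ATF6 and PERK switch on the UPR, in which spliced XBP1, cleaved ATF6 and ATF4 raise the transcription of chaperone and ERAD genes. Cytosolic and mitochondrial chaperones of the HSP70, HSP90 and HSP60 families are controlled in large part by heat shock factors, and in mouse macrophages LPS is known to activate IRE1 and XBP1.

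Library totals were 13451069 to 14018893 counts in LPS, 10656332 to 11531551 in SeMC and 14972385 to 17024392 in Control, and the first principal component of the 9 libraries held 64.9% of the variance and the second 19.5%, with the libraries lying together by group. NOS2, a gene that LPS induces in macrophages, had 204 to 216 CPM (counts per 1000000 of the TMM-adjusted library size) in LPS, 19.4 to 20.8 CPM in SeMC and 16.3 to 19.0 CPM in Control. All 10 macrophage markers looked for were in the table, and they moved in both directions. In LPS over Control 5 of them rose (LYZ, SPI1, CD74, PTPRC and TLR4) and 4 fell (CSF1R, MPEG1, IRF8 and MARCO), and in SeMC over Control 4 fell (MPEG1, MARCO, TLR4 and CD74). CSF1R, the receptor for macrophage colony-stimulating factor, had 49.9 to 56.8 CPM in LPS, 265 to 347 CPM in SeMC and 339 to 365 CPM in Control. The 10 markers summed to 6025 to 6357 CPM in LPS, 3808 to 4090 CPM in SeMC and 4320 to 4625 CPM in Control, and without LYZ the other 9 summed to 4075 to 4176 CPM in LPS, 3549 to 3848 CPM in SeMC and 4075 to 4353 CPM in Control. The 4 T cell markers found summed to at most 8.57 CPM and the 2 thrombocyte markers found to 1.73 to 3.40 CPM in LPS, 5.43 to 6.14 CPM in SeMC and 1.66 to 3.09 CPM in Control. Markers of other cell types also set SeMC apart from Control at low levels. The 2 fibroblast markers found summed to 10.6 to 13.5 CPM in LPS, 13.5 to 18.1 CPM in SeMC and 7.41 to 10.7 CPM in Control, nearly all of it COL1A1. The 2 erythroid markers found summed to 41.9 to 46.9 CPM in LPS, 30.8 to 33.6 CPM in SeMC and 38.2 to 41.5 CPM in Control, most of it TAL1. These 2 markers moved in opposite directions in SeMC. TAL1 had 28.5 to 32.2 CPM in SeMC and 37.8 to 40.9 CPM in Control, and HBBA had 1.09 to 2.34 CPM in SeMC and 0.465 to 0.640 CPM in Control. JCHAIN, a plasma cell gene, had 0.155 to 0.226 CPM in LPS, 1.04 to 1.70 CPM in SeMC and 0 to 0.131 CPM in Control, and the sums of the 3 B cell markers found and of the 1 epithelial marker found overlapped between SeMC and Control. The part of these differences in the results was not tested. In bulk RNA, fewer cells expressing a gene and less RNA per cell cannot be told apart.

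In LPS-treated cells, 14 of the 42 genes rose and 0 fell relative to Control cells, and all of the increases were small. The largest were those of the cytosolic HSP90 gene HSP90AB1 (1.55-fold), SDF2L1 (1.45-fold), HSPH1 (1.37-fold), HSPD1 (1.37-fold), SEC61G (1.25-fold) and HSPA5 (1.24-fold). A gene is said to have risen or fallen where the quasi-likelihood test of edgeR gave a p under 0.05 (FDR) after Benjamini-Hochberg adjustment over all genes, and is said to be called where the change was also above 1.5-fold, the threshold the study used. The 14 genes that rose were 33.3% of the members, beside 18.0% of the 13008 genes tested, and the 0 that fell stand beside 16.5%. At an unadjusted p under 0.05 in edgeR, 17 were higher and 0 lower, beside 2916 and 2744 of the 13008 genes tested. With DESeq2, limma-voom and the limma test after quantile normalization, 0 members fell at FDR under 0.05. HSP90AB1 was the 1 gene called, which is 2.38% of the members beside 12.0% of all genes. The members had 118 to 25332 counts per library, and small changes pass the test more easily at high counts, so the shares beside those of all genes are descriptions.

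In SeMC-treated cells, 8 of the 42 genes rose and 5 fell relative to Control, and 0 were called. The increases were led by DERL1 (1.28-fold) and SEC61G (1.28-fold) and the decreases by HSF2 (0.739-fold) and BAG3 (0.745-fold). The members' shares were 19.0% higher and 11.9% lower, beside 20.3% and 19.1% of the 13146 genes tested. The share that rose was thus near that of all genes. In edgeR with an unadjusted p under 0.05, 12 were higher and 7 lower, beside 3251 and 3135 of the 13146 genes. Of these members 0 were past 1.5-fold, beside 2061 of all genes. With DESeq2, limma-voom and the limma test after quantile normalization, 0 members were called. Among all genes, 14.1% were called in edgeR.

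Both comparisons share the Control libraries, so LPS and SeMC were also compared directly. There, 16 of the 42 genes were higher and 2 lower in LPS, again with 0 called, beside 22.9% of 12979 genes. At an unadjusted p with edgeR 0 members were past 1.5-fold, beside 3099 of all genes. With DESeq2 and both limma tests 0 members were called. The 16 were 38.1% of the members and the 2 were 4.76%, beside 27.1% and 27.2% of all genes. Leaving out LPS replicate 1, LPS replicate 3 or SeMC replicate 2 brought HSP90AB1 past 1.5-fold here, with a log2 fold change of 0.59 to 0.63.

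Of the 28 ER genes, 11 rose (39.3%) and 0 fell in LPS and 7 rose (25%) and 1 fell (3.57%) in SeMC, each relative to Control. Of the 14 cytosolic and mitochondrial genes, 3 rose (21.4%) and 0 fell in LPS, while 1 rose (7.14%) and 4 fell (28.6%) in SeMC. Among all genes tested, 18.0% rose and 16.5% fell in LPS and 20.3% rose and 19.1% fell in SeMC, so the shares of cytosolic and mitochondrial genes that rose in LPS and of ER genes that rose in SeMC were near those of all genes. Directly compared, 5 ER genes were higher (17.9%) and 1 lower (3.57%) in LPS than in SeMC, against 11 higher (78.6%) and 1 lower (7.14%) of the cytosolic and mitochondrial genes, beside 27.1% and 27.2% of all genes. The counts against Control depended on the processing. In LPS, all 7 genes that no longer passed with library totals were ER genes. So were all 10 that no longer passed after quantile normalization with limma. The 3 cytosolic and mitochondrial genes that rose in LPS still passed in both fits. Of the ER genes that rose in SeMC, only DERL1 still passed after quantile normalization. With library totals, HERPUD1, DERL2, MANF and HSPH1 also passed in SeMC. The direct counts depended on the scaling as well. With library totals alone, DNAJC3, HSP90AA1, HSPA8, HSPA4, HSPH1, BAG3 and HSPE1 no longer passed, and 8 more ER genes passed as lower in LPS. After quantile normalization, in a limma fit with no filter on low counts, DNAJC3, ERN1, HSP90AA1, HSPA8, HSPA4, HSPH1, HSPE1 and DNAJA1 no longer passed. The difference between these sets of genes was not tested.

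The median log2 fold change of the ER genes was 0.11 in LPS and 0.094 in SeMC, each relative to Control, and that of the cytosolic and mitochondrial genes was 0.096 in LPS and -0.085 in SeMC. Over all genes tested the medians were -0.0015 and 0.0010. In LPS over Control the ER median became 0.038 with library totals, where that of all genes was -0.077. After quantile normalization these were 0.025 and -0.019. In the direct comparison the median was 0.039 for the ER genes, 0.25 for the cytosolic and mitochondrial genes and -0.0047 for all genes. The small ER median in that comparison turned to -0.074 when libraries were scaled by their totals alone, a scaling that moved the median of all genes to -0.12, and to -0.054 after quantile normalization. Most members lay close to no change, with 78.6% within 1.2-fold in LPS relative to Control, 81.0% in SeMC relative to Control and 73.8% in LPS relative to SeMC, beside 59.4%, 57.4% and 45.1% of all genes. The libraries of the 2 groups did not overlap in 52.4%, 54.8% and 57.1% of members in these comparisons. Among all genes tested these shares were 46.5%, 51.0% and 61.5%. A lack of overlap, given below for single genes, was thus about as common among all genes.

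**Figure D1:**
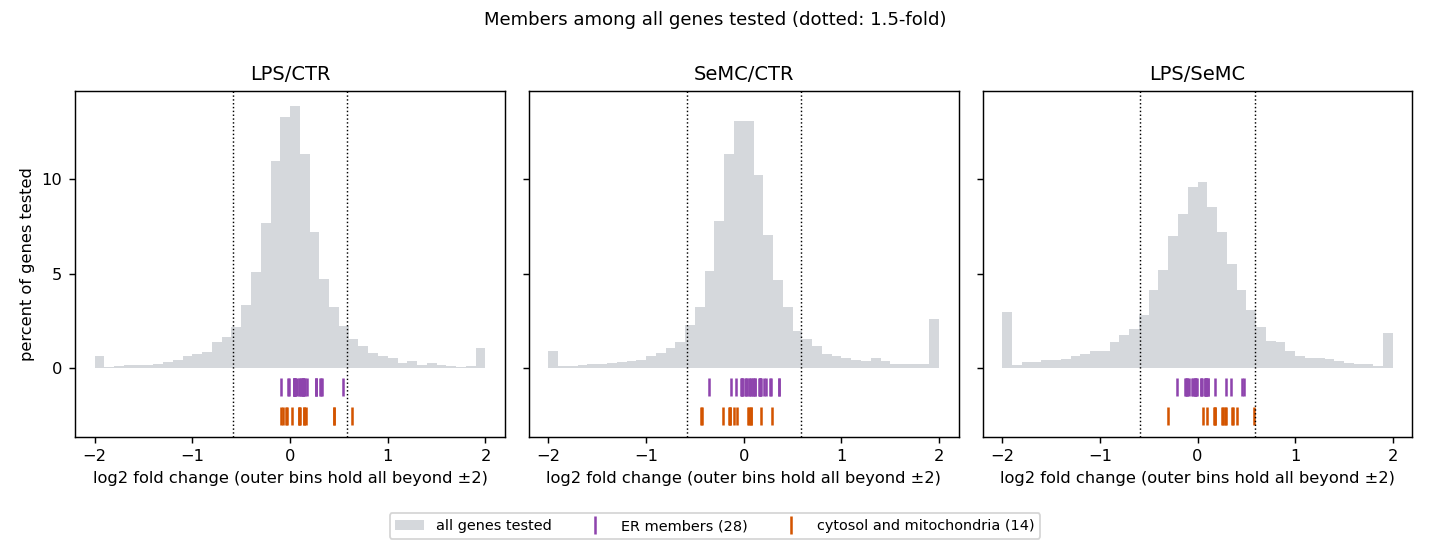
Grey bars give the percent of all genes tested in each bin of the log2 fold change, for LPS over Control, SeMC over Control and LPS over SeMC, and ticks give the 28 ER genes (purple) and the 14 cytosolic and mitochondrial genes (orange). All ticks but that of HSP90AB1 in LPS over Control lie between the dotted lines at 1.5-fold, and in LPS over SeMC 13 of the 14 orange ticks lie above 0.

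**Figure D2:**
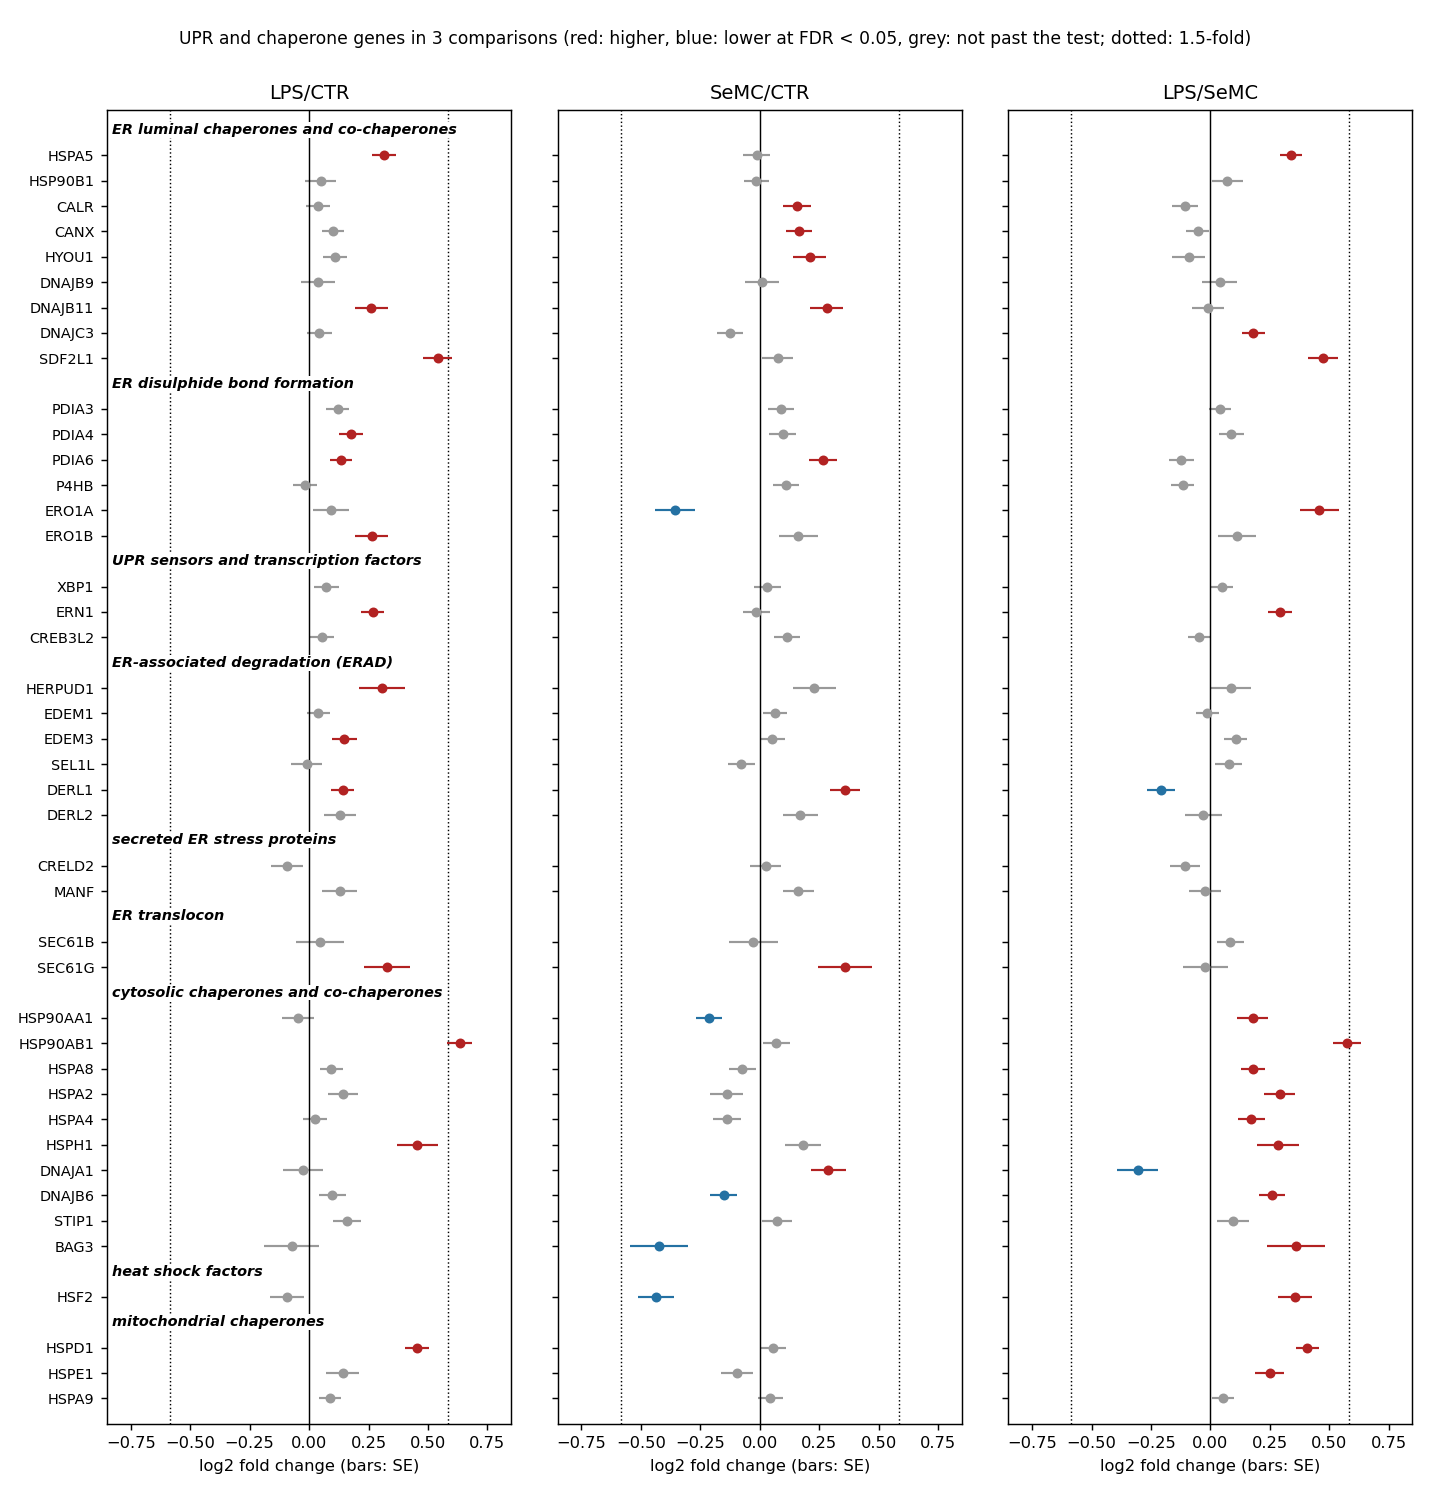
Points give the log2 fold change of each of the 42 genes, grouped by role, and bars its standard error, with red for genes that rose, blue for genes that fell and grey for genes that did not pass the test at an FDR of 0.05. Red points in LPS over Control (14) include 11 of ER genes, and the blue points in SeMC over Control (5) are 4 cytosolic genes or heat shock factors and ERO1A.

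Summed over the 28 ER genes, the level was 9265 to 9402 CPM in LPS, 9189 to 9592 CPM in SeMC and 8667 to 8832 CPM in Control. Both treated groups thus lay above Control without overlap and overlapped each other. The 14 cytosolic and mitochondrial genes summed to 4181 to 4361 CPM in LPS, 3645 to 3810 CPM in SeMC and 3930 to 3935 CPM in Control. Here the groups did not overlap, with LPS above and SeMC below Control. These sums are led by a few abundant genes and were not tested.

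Among the 9 ER luminal chaperones, HSPA5, DNAJB11 and SDF2L1 rose in LPS, and CALR, CANX, HYOU1 and DNAJB11 rose in SeMC. HSPA5 (BiP, chromosome 17, 10199762 to 10203834 in GRCg7b), the central HSP70 chaperone of the ER and a standard readout of the UPR, had 788, 811 and 795 CPM in LPS libraries, 649, 648 and 624 CPM in SeMC libraries and 682, 635 and 626 CPM in Control libraries. All 3 LPS libraries lay above every other library, and the SeMC and Control libraries overlapped. Its log2 fold change was 0.32 (SE 0.050, adjusted p = 0.000169) in LPS over Control, -0.014 (SE 0.056, adjusted p = 0.866) in SeMC over Control and 0.34 (SE 0.046, adjusted p = 4.56e-05) in LPS over SeMC. The increase in LPS over Control missed the threshold after quantile normalization (log2 fold change 0.15, adjusted p = 0.15 with limma).

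SDF2L1 (chromosome 15, 404403 to 408332), which in mammals is found with BiP and DNAJB11 in the ER lumen, had 91.2, 97.7 and 99.5 CPM in LPS libraries, 70.5, 72.5 and 67.7 CPM in SeMC libraries and 67.2, 68.3 and 64.7 CPM in Control libraries. The LPS libraries were again all above the others, with a log2 fold change of 0.54 (SE 0.062, adjusted p = 7.06e-06) over Control and 0.47 (SE 0.063, adjusted p = 3.49e-05) over SeMC. It passed the test in all 15 alternative fits, with a log2 fold change of 0.47 to 0.57 in LPS over Control. DNAJB11 (chromosome 9, 4019441 to 4031268), a J-domain co-chaperone that delivers unfolded proteins to BiP, had 125, 144 and 129 CPM in LPS libraries, 139.9, 125 and 142 CPM in SeMC libraries and 116, 101 and 118 CPM in Control libraries. Both treated groups lay above Control without overlap, with log2 fold changes of 0.26 (SE 0.070, adjusted p = 0.00857) in LPS and 0.28 (SE 0.069, adjusted p = 0.00492) in SeMC. The difference between them did not pass the test (-0.010 (adjusted p = 0.912) in LPS over SeMC). Without LPS replicate 2, the increase in LPS had an adjusted p of 0.0748, and it was also lost with library totals. After quantile normalization neither increase passed (adjusted p = 0.219 in LPS and 0.0995 in SeMC with limma).

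The lectin chaperones calreticulin (CALR, chromosome 30, 644470 to 647759) and calnexin (CANX, chromosome 13, 13140772 to 13158529), which hold glycoproteins during folding, rose slightly in SeMC. CALR had 939.9, 935 and 879 CPM in LPS libraries, 972, 1076 and 962 CPM in SeMC libraries and 894, 881 and 933 CPM in Control libraries, and CANX had 362, 366 and 353 CPM in LPS libraries, 375, 396 and 366 CPM in SeMC libraries and 331, 337 and 350.0 CPM in Control libraries. The SeMC libraries lay above the Control libraries in both genes, with a log2 fold change of 0.16 (SE 0.060, adjusted p = 0.0499) for CALR and 0.16 (SE 0.055, adjusted p = 0.0265) for CANX. CALR was near the threshold and missed it when SeMC replicate 1 or 2 or any Control replicate was left out (adjusted p up to 0.172), and CANX when SeMC replicate 1 or 2 or Control replicate 1 or 2 was left out (adjusted p up to 0.0965). CANX overlaps MAML1 and LTC4SL, and whether the counting used strand is not given in the sources used here, so some of its reads may belong to these genes. HYOU1 (chromosome 24, 5703400 to 5717271), the nucleotide exchange factor of BiP, had 238, 246 and 237 CPM in LPS libraries, 241, 293 and 246 CPM in SeMC libraries and 219, 233 and 224 CPM in Control libraries. SeMC replicate 2 was well above the other SeMC libraries. The log2 fold change in SeMC over Control was 0.21 (SE 0.070, adjusted p = 0.0262), and it missed the threshold without SeMC replicate 2, Control replicate 1 or Control replicate 3 (adjusted p up to 0.134). After quantile normalization the increases of CALR, CANX and HYOU1 in SeMC missed it (adjusted p = 0.264, 0.104 and 0.171 with limma). None of CALR, CANX and HYOU1 differed past the threshold between LPS and SeMC (adjusted p = 0.12, 0.369 and 0.273), so their increase in SeMC is not shown to be absent from LPS. This depended on the scaling, since all 3 were lower in LPS than in SeMC when libraries were scaled by their totals (adjusted p = 0.00497, 0.0109 and 0.0229), as was CALR after quantile normalization (log2 fold change -0.26, adjusted p = 0.0391 with limma).

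The ER HSP90 chaperone HSP90B1 (GRP94, chromosome 1, 54759583 to 54769432) had 769.6, 631 and 654 CPM in LPS libraries, 668, 679 and 637 CPM in SeMC libraries and 672, 672 and 662 CPM in Control libraries. LPS replicate 1 was higher than all other libraries, the groups overlapped, and the log2 fold change was 0.048 (adjusted p = 0.61) in LPS and -0.014 (adjusted p = 0.859) in SeMC. DNAJB9, a J-domain protein that is among the strongest targets of spliced XBP1 in mammals, averaged 48.0 ± 2.42 CPM in LPS, 47.4 ± 1.72 CPM in SeMC and 47.2 ± 0.333 CPM in Control libraries (SD, n = 3 each). Its log2 fold changes were 0.037 (adjusted p = 0.721) in LPS and 0.0087 (adjusted p = 0.933) in SeMC. DNAJC3, a further J-domain co-chaperone of BiP, did not pass the test against Control in either group but was higher in LPS than in SeMC, with 169, 177 and 176 CPM in LPS libraries, 157, 151 and 159.6 CPM in SeMC libraries and 178, 167 and 167 CPM in Control libraries and a log2 fold change of 0.18 (SE 0.049, adjusted p = 0.0073) between the treated groups. It overlaps UGGT2.

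Of the 6 genes of disulphide bond formation, PDIA4, PDIA6 and ERO1B rose in LPS, while PDIA6 rose and ERO1A fell in SeMC. PDIA6 (chromosome 3, 96619929 to 96635936), a disulphide isomerase that also attenuates IRE1 signalling in mammals, had 483, 484 and 498 CPM in LPS libraries, 513, 577 and 529 CPM in SeMC libraries and 446, 438 and 465 CPM in Control libraries. The Control libraries were the lowest, and the SeMC libraries the highest. On the log2 scale the change was 0.27 (SE 0.058, adjusted p = 0.00228) in SeMC and 0.13 (SE 0.047, adjusted p = 0.039) in LPS. The increase in LPS was lost when any 1 library other than Control replicate 3 was left out (adjusted p up to 0.192) and came to -0.00036 after quantile normalization. That in SeMC also missed the threshold after quantile normalization (adjusted p = 0.0616 with limma). PDIA6 overlaps LOC107051690. PDIA4, an isomerase with several thioredoxin domains, averaged 255 ± 9.81 CPM in LPS, 244 ± 13.1 CPM in SeMC and 228 ± 6.18 CPM in Control libraries (SD, n = 3 each) and rose in LPS by 0.18 (SE 0.052, adjusted p = 0.0159) on the log2 scale, which had an adjusted p up to 0.0852 without LPS replicate 1, LPS replicate 3 or Control replicate 3. This increase was also lost with library totals and after quantile normalization (adjusted p = 0.317 with limma).

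ERO1A and ERO1B encode the oxidases that recharge disulphide isomerases. ERO1A (chromosome 5, 57963936 to 57981470) had 58.5, 57.2 and 62.9 CPM in LPS libraries, 44.7, 40.0 and 47.1 CPM in SeMC libraries and 59.3, 50.9 and 58.9 CPM in Control libraries. The SeMC libraries lay below all others, and LPS and Control overlapped. Its log2 fold change was -0.36 (SE 0.084, adjusted p = 0.00381) in SeMC over Control and 0.46 (SE 0.080, adjusted p = 0.000354) in LPS over SeMC, beside 0.092 (adjusted p = 0.37) in LPS over Control. The decrease in SeMC just missed the threshold after quantile normalization (adjusted p = 0.052 with limma). ERO1B (chromosome 3, 37453237 to 37482524) had 70.5, 72.8 and 70.4 CPM in LPS libraries, 67.9, 73.4 and 59.5 CPM in SeMC libraries and 60.8, 63.1 and 55.9 CPM in Control libraries. The LPS libraries were above all Control libraries while the SeMC libraries overlapped with both, and the log2 fold change was 0.26 (SE 0.069, adjusted p = 0.00785) in LPS and 0.16 (adjusted p = 0.13) in SeMC. The increase in LPS missed the threshold after quantile normalization (adjusted p = 0.0713 with limma).

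PDIA3, the isomerase that works with calnexin and calreticulin, averaged 985 ± 26.3 CPM in LPS, 972 ± 22.3 CPM in SeMC and 915 ± 37.1 CPM in Control libraries (SD, n = 3 each) and did not pass the test (0.12 (adjusted p = 0.0726) in LPS and 0.090 (adjusted p = 0.211) in SeMC on the log2 scale). P4HB, the classical protein disulphide isomerase and the member with the most counts, averaged 1464 ± 53.0 CPM in LPS, 1612 ± 19.7 CPM in SeMC and 1496 ± 21.1 CPM in Control libraries (SD, n = 3 each), with log2 fold changes of -0.018 (adjusted p = 0.816) in LPS and 0.11 (adjusted p = 0.121) in SeMC. Between LPS and SeMC, P4HB (-0.12 (adjusted p = 0.0616)) and PDIA6 (-0.12 (adjusted p = 0.0631)) were near the threshold, and both passed it as lower in LPS with DESeq2 (adjusted p = 0.0219 and 0.046). Both also passed with library totals, upper-quartile factors, all 9 libraries in one fit and quantile normalization. P4HB passed with no filter and with limma-voom as well, and PDIA6 without SeMC replicate 1.

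The RNA of the sensor IRE1 rose in LPS while its target transcript XBP1 did not pass the test. ERN1 (chromosome 18, 7388504 to 7422209), which encodes IRE1, the kinase and endoribonuclease that splices XBP1 RNA, had 416, 417 and 405 CPM in LPS libraries, 353, 322 and 351 CPM in SeMC libraries and 329.9, 356 and 352 CPM in Control libraries. All LPS libraries were above all others, and SeMC and Control overlapped. In the test the log2 fold change was 0.27 (SE 0.050, adjusted p = 0.000652) in LPS over Control, -0.015 (adjusted p = 0.858) in SeMC over Control and 0.29 (SE 0.050, adjusted p = 0.000301) in LPS over SeMC. The first and the last of these missed the threshold after quantile normalization, with adjusted p-values of 0.151 and 0.119 from limma. ERN1 overlaps LOC121107129 and LOC107052236, so some of its reads may be theirs.

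XBP1 (chromosome 15, 7720788 to 7723912), the transcription factor made from the spliced RNA, had 189, 191 and 193 CPM in LPS libraries, 191, 187 and 184 CPM in SeMC libraries and 191, 172 and 187 CPM in Control libraries. The groups overlapped, and the log2 fold change was 0.072 (SE 0.053, adjusted p = 0.32) in LPS and 0.032 (SE 0.056, adjusted p = 0.674) in SeMC. Counts per gene do not separate spliced from unspliced XBP1 RNA, nor do they show the cleavage of ATF6. CREB3L2, an ER-anchored transcription factor related to ATF6, averaged 638 ± 19.9 CPM in LPS, 669 ± 16.9 CPM in SeMC and 619.9 ± 22.3 CPM in Control libraries (SD, n = 3 each) and did not pass the test in any comparison.

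Among the 6 ERAD genes, HERPUD1, EDEM3 and DERL1 rose in LPS and DERL1 also rose in SeMC. DERL1 (chromosome 2, 136896488 to 136911316), a membrane protein of the channel through which proteins leave the ER, had 225, 224 and 233 CPM in LPS libraries, 264, 291 and 246 CPM in SeMC libraries and 207, 209 and 209 CPM in Control libraries. The SeMC libraries were the highest, the Control libraries the lowest, and no groups overlapped. This gave a log2 fold change of 0.36 (SE 0.062, adjusted p = 0.000451) in SeMC over Control, 0.14 (SE 0.048, adjusted p = 0.0335) in LPS over Control and -0.21 (SE 0.060, adjusted p = 0.0105) in LPS over SeMC. The increase in SeMC passed the test in all 15 alternative fits, whereas that in LPS missed it when any 1 of the 6 libraries was left out, with an adjusted p of 0.0507 to 0.172.

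HERPUD1 (chromosome 11, 596743 to 602067), a stress-induced scaffold of the ERAD ubiquitin ligase, had 61.3, 73.3 and 73.7 CPM in LPS libraries, 66.6, 62.5 and 70.0 CPM in SeMC libraries and 47.9, 58.4 and 63.6 CPM in Control libraries. The libraries were scattered, and LPS replicate 1 lay within the Control range. Its log2 fold change was 0.31 (SE 0.10, adjusted p = 0.0249) in LPS, lost without LPS replicate 2, LPS replicate 3 or Control replicate 1 (adjusted p up to 0.141), and 0.23 (SE 0.091, adjusted p = 0.0575) in SeMC. The increase in LPS was also lost with library totals and after quantile normalization (adjusted p = 0.214 with limma). EDEM3, which trims mannose from misfolded glycoproteins, averaged 202 ± 7.04 CPM in LPS, 191 ± 1.00 CPM in SeMC and 184 ± 3.99 CPM in Control libraries (SD, n = 3 each), with a log2 fold change of 0.15 (SE 0.052, adjusted p = 0.0364) in LPS that was lost without LPS replicate 2, LPS replicate 3 or any Control replicate (adjusted p up to 0.168). It was also lost with library totals, upper-quartile factors, the replicate block and quantile normalization (0.036, adjusted p = 0.699 with limma). EDEM1, of the same family, SEL1L, the partner of the ligase SYVN1, and DERL2 did not pass the test in any comparison, with log2 fold changes in LPS over Control of 0.039, -0.011 and 0.13.

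The secreted ER stress proteins MANF and CRELD2 did not pass the test. MANF, a factor that mammalian cells release under ER stress, averaged 103 ± 9.11 CPM in LPS, 106 ± 1.02 CPM in SeMC and 94.7 ± 7.34 CPM in Control libraries (SD, n = 3 each), with log2 fold changes of 0.13 (adjusted p = 0.196) in LPS and 0.16 (adjusted p = 0.0537) in SeMC. CRELD2 averaged 74.0 ± 3.30 CPM in LPS, 81.0 ± 2.71 CPM in SeMC and 79.8 ± 4.97 CPM in Control libraries (SD, n = 3 each), with -0.094 (adjusted p = 0.311) in LPS and 0.024 (adjusted p = 0.793) in SeMC, and it overlaps ALG12.

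Of the small translocon subunits, through which nascent chains enter the ER, SEC61G (chromosome 2, 52121216 to 52124984) had 41.3, 43.3 and 41.0 CPM in LPS libraries, 48.0, 36.5 and 44.7 CPM in SeMC libraries and 32.3, 29.2 and 39.5 CPM in Control libraries. The LPS libraries were above all Control libraries, and the SeMC libraries overlapped with them. The log2 fold change was 0.33 (SE 0.10, adjusted p = 0.0162) in LPS and 0.36 (SE 0.11, adjusted p = 0.0202) in SeMC. Both increases were close to the threshold. The one in LPS missed it without LPS replicate 2, LPS replicate 3, Control replicate 1 or Control replicate 2 (log2 fold change 0.23 to 0.33, adjusted p up to 0.0886), and the one in SeMC without SeMC replicate 1, SeMC replicate 3, Control replicate 1 or Control replicate 2 (log2 fold change 0.26 to 0.33, adjusted p up to 0.103). The increase of SEC61G in LPS was also lost with library totals. After quantile normalization neither increase passed (adjusted p = 0.132 in LPS and 0.161 in SeMC with limma). SEC61B had 132, 137 and 131 CPM in LPS libraries, 136, 119 and 129 CPM in SeMC libraries and 143, 101 and 147 CPM in Control libraries. Control replicate 2 was far below the other libraries in this gene, and the log2 fold changes were 0.047 (adjusted p = 0.753) in LPS and -0.028 (adjusted p = 0.854) in SeMC.

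**Figure D3:**
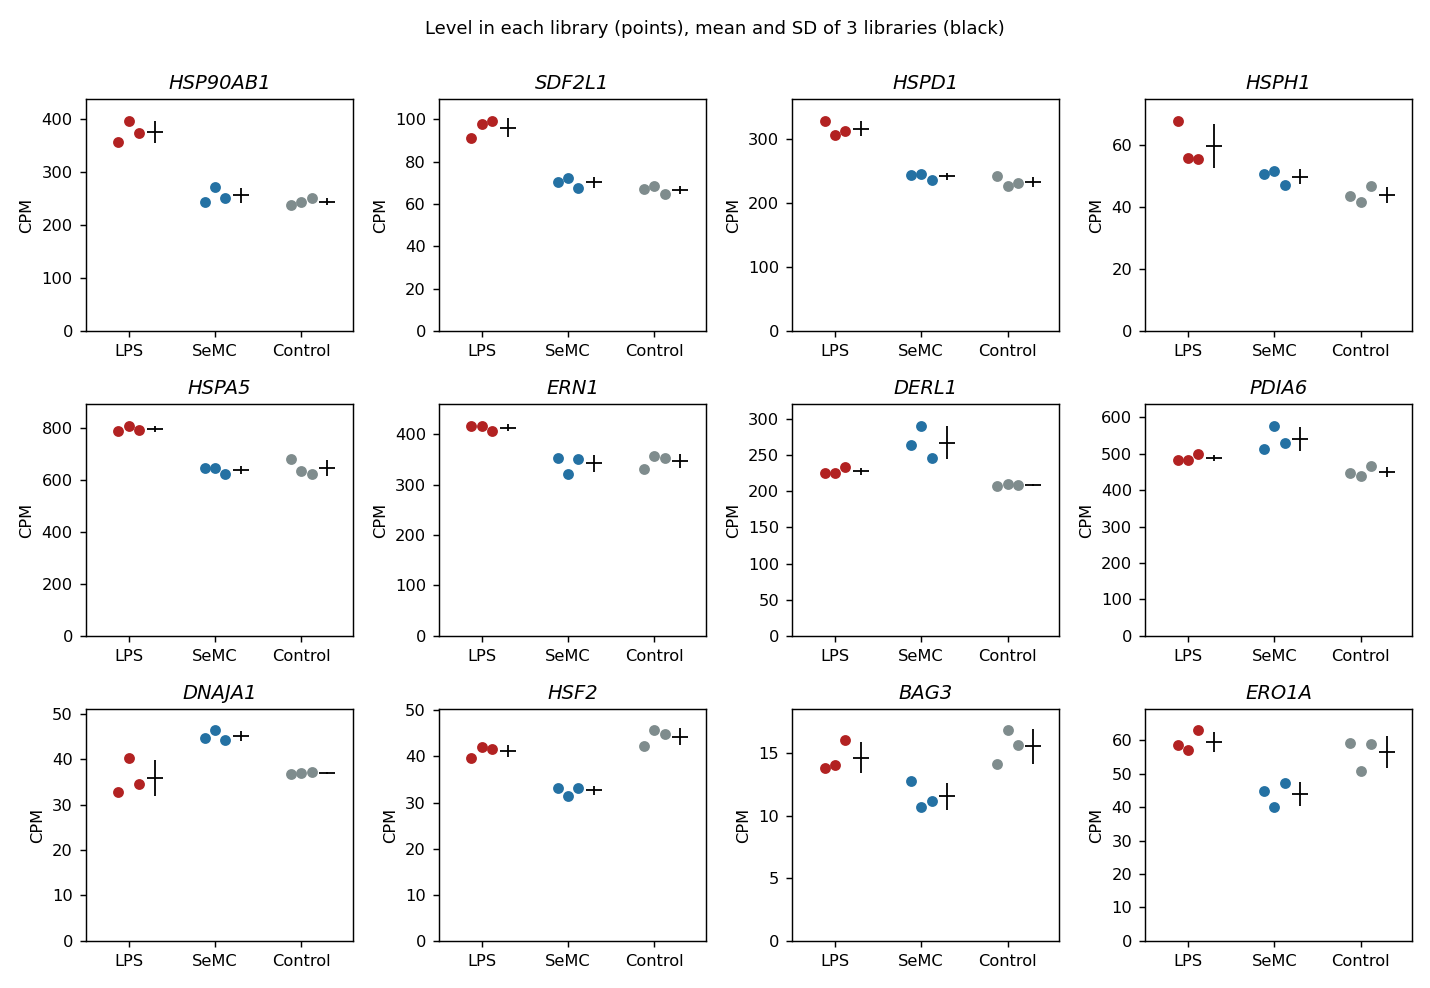
Points give the level in CPM of 12 genes in each of the 3 LPS, 3 SeMC and 3 Control libraries, with the mean and SD in black, on axes that start at 0. HSP90AB1, SDF2L1, HSPD1, HSPH1, HSPA5 and ERN1 are highest in LPS, DERL1, PDIA6 and DNAJA1 are highest in SeMC, and HSF2, BAG3 and ERO1A are lowest in SeMC.

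In the cytosol, HSP90AB1 rose in LPS, while HSP90AA1 did not pass the test there and fell in SeMC. HSP90AB1 (chromosome 3, 29961033 to 29966993), the HSP90 gene that mammalian cells express constitutively, had 356, 397 and 373 CPM in LPS libraries, 244, 272 and 251 CPM in SeMC libraries and 238, 243 and 252 CPM in Control libraries. Every LPS library was above every SeMC and Control library, and SeMC and Control overlapped. In the test the log2 fold change was 0.63 (SE 0.053, adjusted p = 2.06e-07) in LPS over Control, 0.069 (SE 0.057, adjusted p = 0.353) in SeMC over Control and 0.58 (SE 0.058, adjusted p = 3.07e-06) in LPS over SeMC. It passed the test in all 15 alternative fits, and fell just short of 1.5-fold without LPS replicate 2 (log2 fold change 0.58).

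HSP90AA1 (chromosome 5, 48992977 to 49000184), the stress-inducible HSP90 gene of mammals, had 891, 721 and 768 CPM in LPS libraries, 713, 729 and 693 CPM in SeMC libraries and 815, 848 and 816 CPM in Control libraries. LPS replicate 1 was the highest and LPS replicate 2 lay among the SeMC libraries, while all SeMC libraries were below all Control libraries. This gave a log2 fold change of -0.045 (SE 0.068, adjusted p = 0.643) in LPS over Control and -0.21 (SE 0.054, adjusted p = 0.00596) in SeMC over Control. The decrease in SeMC missed the threshold after quantile normalization (log2 fold change -0.17, adjusted p = 0.0725 with limma). The difference between LPS and SeMC (0.18 (SE 0.067, adjusted p = 0.0384)) was lost without LPS replicate 1, LPS replicate 3, SeMC replicate 1 or SeMC replicate 3, with an adjusted p up to 0.141, and turned to -0.023 after quantile normalization. HSP90AA1 overlaps LOC121113247, and reads that could come from either HSP90 gene may have been counted in a way that the sources used here do not give.

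The ratio of 2 genes within a library does not depend on how libraries are scaled. The ratio of HSP90AB1 to HSP90AA1 counts was 0.400, 0.551 and 0.486 in LPS, 0.341, 0.374 and 0.363 in SeMC and 0.292, 0.286 and 0.308 in Control. The 3 groups did not overlap, with LPS highest and Control lowest. The ratio of HSPA5 to HSPA8 counts, the ER and the cytosolic HSP70 chaperone, was 0.521, 0.519 and 0.533 in LPS, 0.462, 0.467 and 0.476 in SeMC and 0.469, 0.440 and 0.439 in Control. LPS lay apart from both other groups, which overlapped. For HSP90B1 to HSP90AA1, the ER and the cytosolic HSP90, it was 0.863, 0.876 and 0.852 in LPS, 0.936, 0.932 and 0.919 in SeMC and 0.825, 0.793 and 0.811 in Control. The SeMC libraries were the highest and the Control libraries the lowest, although HSP90B1 itself did not pass the test in any comparison. Between 2 groups of 3 libraries a two-sided exact permutation test cannot reach 0.05. A test over all 3 groups was not run, and the ratios are given as a description.

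**Figure D4:**
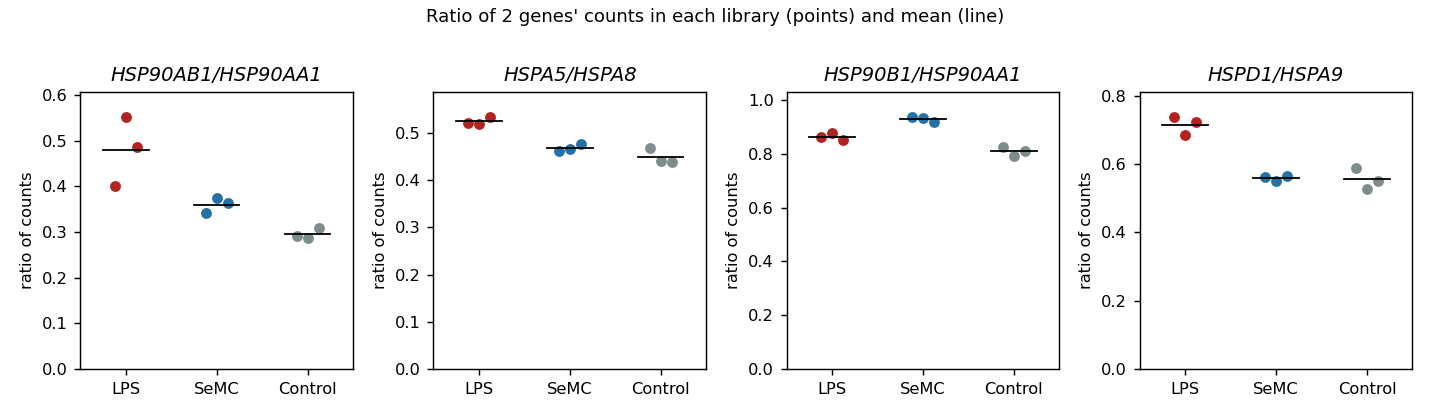
Points give the ratio of the counts of 2 genes in each library and lines the mean of 3 libraries, for LPS, SeMC and Control, on axes that start at 0. HSP90AB1/HSP90AA1 (0.400 to 0.551), HSPA5/HSPA8 (0.519 to 0.533) and HSPD1/HSPA9 (0.686 to 0.737) are highest in LPS, and HSP90B1/HSP90AA1 (0.919 to 0.936) is highest in SeMC.

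The HSP70 genes of the cytosol did not pass the test against Control in either group but were higher in LPS than in SeMC. HSPA8 (chromosome 24, 3128643 to 3133770), the constitutive HSP70 of mammalian cells, had 1514, 1564 and 1492 CPM in LPS libraries, 1405, 1386 and 1309 CPM in SeMC libraries and 1454, 1443 and 1426 CPM in Control libraries. The LPS libraries were the highest and the SeMC libraries the lowest, with a log2 fold change of 0.18 (SE 0.050, adjusted p = 0.00911) between them, beside 0.094 (adjusted p = 0.146) in LPS over Control and -0.074 (adjusted p = 0.314) in SeMC over Control. After quantile normalization the difference between LPS and SeMC turned to -0.0074. HSPA2, a further HSP70 gene, and HSPA4, a nucleotide exchange factor of the HSP110 family, were also higher in LPS than in SeMC, with log2 fold changes of 0.29 (SE 0.065, adjusted p = 0.00206) and 0.17 (SE 0.056, adjusted p = 0.0195). That of HSPA4 was lost without LPS replicate 1, SeMC replicate 1 or SeMC replicate 3 (adjusted p up to 0.110). HSPA8 overlaps LOC112530276, LOC112530277 and LOC112530278, and HSPA2 overlaps PPP1R36.

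HSPH1 (chromosome 1, 174847379 to 174869372), another exchange factor of the HSP110 family, rose in LPS. It had 68.0, 56.0 and 55.4 CPM in LPS libraries, 50.8, 51.5 and 47.1 CPM in SeMC libraries and 43.4, 41.7 and 46.9 CPM in Control libraries. LPS replicate 1 was higher than the rest, and all LPS libraries lay above all SeMC and Control libraries. On the log2 scale the change was 0.45 (SE 0.086, adjusted p = 0.000778) in LPS over Control and 0.28 (SE 0.088, adjusted p = 0.0148) in LPS over SeMC, beside 0.18 (SE 0.076, adjusted p = 0.0701) in SeMC over Control. Without LPS replicate 1 the increase over Control was 0.34, and the difference from SeMC was lost without SeMC replicate 3 (adjusted p = 0.0707).

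The co-chaperones moved in different directions in SeMC. DNAJA1 (chromosome Z, 71165944 to 71181383), a J-domain partner of HSPA8, had 32.9, 40.3 and 34.5 CPM in LPS libraries, 44.6, 46.3 and 44.1 CPM in SeMC libraries and 36.6, 36.8 and 37.2 CPM in Control libraries. The SeMC libraries were above all others, and LPS and Control overlapped. Its log2 fold change was 0.29 (SE 0.072, adjusted p = 0.00541) in SeMC over Control, -0.027 (adjusted p = 0.838) in LPS over Control and -0.31 (SE 0.087, adjusted p = 0.0094) in LPS over SeMC, the last being lost without LPS replicate 3 (adjusted p = 0.0517). DNAJA1 overlaps SMU1.

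BAG3 (chromosome 6, 31061818 to 31079755), an HSP70 exchange factor that sends aggregated proteins to autophagy and a classical heat shock target, had 13.8, 14.0 and 16.0 CPM in LPS libraries, 12.7, 10.7 and 11.2 CPM in SeMC libraries and 14.1, 16.8 and 15.7 CPM in Control libraries. The SeMC libraries were below all others, and LPS and Control overlapped. With 118 counts in its shallowest library, BAG3 was the least counted of the members, and its log2 fold change was -0.42 (SE 0.12, adjusted p = 0.013) in SeMC over Control and 0.36 (SE 0.12, adjusted p = 0.023) in LPS over SeMC. The decrease relative to Control passed the test in all 15 alternative fits, and the difference between LPS and SeMC was lost without LPS replicate 3, SeMC replicate 2 or SeMC replicate 3 (adjusted p up to 0.086). That difference was also lost with DESeq2 and with library totals.

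DNAJB6, a J-domain protein that keeps polyglutamine proteins from aggregating, averaged 127 ± 5.02 CPM in LPS, 107 ± 2.12 CPM in SeMC and 119 ± 4.69 CPM in Control libraries (SD, n = 3 each). Its decrease in SeMC (-0.15 (SE 0.057, adjusted p = 0.0462)) was lost when any 1 of the 6 libraries was left out, with an adjusted p of 0.0511 to 0.153, and the difference between LPS and SeMC (0.26 (SE 0.054, adjusted p = 0.00126)) passed the test in all 15 alternative fits. STIP1, the adaptor that joins HSP70 to HSP90, averaged 222 ± 15.8 CPM in LPS, 211 ± 16.7 CPM in SeMC and 201 ± 8.65 CPM in Control libraries (SD, n = 3 each) and did not pass the test (0.16 (adjusted p = 0.0505) in LPS and 0.074 (adjusted p = 0.363) in SeMC on the log2 scale). STIP1 overlaps LOC107050103, LOC107049524 and CAPN1.

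HSF2 (chromosome 3, 60968629 to 60989995), a heat shock transcription factor that acts with HSF1, had the largest decrease in SeMC among the members. It had 39.7, 42.1 and 41.6 CPM in LPS libraries, 33.2, 31.4 and 33.2 CPM in SeMC libraries and 42.2, 45.6 and 44.9 CPM in Control libraries. The SeMC libraries lay well below all others, and the LPS libraries lay just below the Control libraries without overlap. The log2 fold change was -0.44 (SE 0.076, adjusted p = 0.000465) in SeMC over Control, -0.092 (SE 0.072, adjusted p = 0.352) in LPS over Control and 0.36 (SE 0.073, adjusted p = 0.00116) in LPS over SeMC. The decrease in SeMC and the difference between LPS and SeMC passed the test in all 15 alternative fits. HSF1 is listed in RefSeq as a synonym of LOC420362 (chromosome 2, 148261326 to 148358452) and of HSF3 (chromosome 4, 238463 to 253473), and which of these stands for HSF1 was not settled. HSF3 was also listed here as a gene of its own, among the further genes of the HSP70 and HSP90 cycle. LOC420362 had log2 fold changes of 0.30 in LPS (adjusted p = 0.0122) and -0.084 in SeMC (adjusted p = 0.503), and HSF3 had -0.0036 in LPS (adjusted p = 0.977) and -0.25 in SeMC (adjusted p = 0.0259).

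Of the mitochondrial chaperones, HSPD1 rose in LPS while its cofactor and HSPA9 did not pass the test. HSPD1 (HSP60, chromosome 7, 9824993 to 9834299), the barrel-shaped chaperonin of the mitochondrial matrix, had 329, 307 and 312 CPM in LPS libraries, 244, 246 and 236 CPM in SeMC libraries and 242, 226 and 231 CPM in Control libraries. Every LPS library was above every other library, and SeMC and Control overlapped. This gave a log2 fold change of 0.45 (SE 0.051, adjusted p = 5.91e-06) in LPS over Control, 0.055 (adjusted p = 0.432) in SeMC over Control and 0.41 (SE 0.048, adjusted p = 1.24e-05) in LPS over SeMC, and the differences in LPS passed the test in all 15 alternative fits. HSPD1 overlaps COQ10B.

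HSPE1 (HSP10, chromosome 7, 9834761 to 9839275), the lid of the HSP60 chaperonin and its neighbour in the genome, had 94.8, 107 and 101 CPM in LPS libraries, 87.5, 87.3 and 83.8 CPM in SeMC libraries and 96.3, 83.4 and 97.2 CPM in Control libraries. The LPS and Control libraries overlapped, and the SeMC libraries lay below all LPS libraries. On the log2 scale the change was 0.14 (SE 0.069, adjusted p = 0.13) in LPS over Control and 0.25 (SE 0.062, adjusted p = 0.00407) in LPS over SeMC. The latter missed the threshold with library totals and after quantile normalization (0.21, adjusted p = 0.0701 with limma). The ratio of HSPD1 to HSPE1 counts was 3.47, 2.87 and 3.09 in LPS, 2.79, 2.82 and 2.81 in SeMC and 2.51, 2.71 and 2.38 in Control, so that the groups did not overlap. HSPA9, the mitochondrial HSP70, averaged 442 ± 8.91 CPM in LPS, 432 ± 15.4 CPM in SeMC and 419.9 ± 8.14 CPM in Control libraries (SD, n = 3 each) and had log2 fold changes of 0.087 (adjusted p = 0.176) in LPS and 0.044 (adjusted p = 0.533) in SeMC. The ratio of HSPD1 to HSPA9 counts was 0.686 to 0.737 in LPS, 0.550 to 0.566 in SeMC and 0.528 to 0.588 in Control. HSPA9 overlaps LOC121106721, LOC112533438 and LOC121106722.

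By pattern over the 3 comparisons, HSPA5, SDF2L1, ERN1, HSP90AB1, HSPH1 and HSPD1 rose in LPS over Control and were also higher in LPS than in SeMC. DNAJB11, PDIA6, SEC61G and DERL1 rose in both treated groups, DERL1 more in SeMC than in LPS. Their increases in LPS all missed the threshold with library totals and after quantile normalization. In LPS over Control PDIA6 and DERL1 passed in 4 of the 15 alternative fits, SEC61G in 9 and DNAJB11 in 12. In SeMC over Control DERL1 passed in all 15, DNAJB11 and PDIA6 in 14 and SEC61G in 10. PDIA4, ERO1B, HERPUD1 and EDEM3 passed the test in LPS over Control and in neither other comparison, but none of them differed past the threshold between LPS and SeMC (adjusted p = 0.178, 0.248, 0.395 and 0.0783), so their increase is not shown to be absent from SeMC. HERPUD1 also passed in SeMC over Control with library totals (adjusted p = 0.0367) and with the replicate block (adjusted p = 0.0354), as did ERO1B without SeMC replicate 3 (adjusted p = 0.0332), and EDEM3 was higher in LPS than in SeMC without LPS replicate 1 (adjusted p = 0.0363). CALR, CANX, HYOU1 and DNAJA1 rose in SeMC over Control, DNAJA1 being also higher in SeMC than in LPS. ERO1A, HSP90AA1, DNAJB6, BAG3 and HSF2 fell in SeMC and were higher in LPS than in SeMC. DNAJC3, HSPA8, HSPA2, HSPA4 and HSPE1 differed between LPS and SeMC without passing the test against Control. Of these only HSPA2 passed in all 15 alternative fits. The 14 genes that passed the test in none of the comparisons were HSP90B1, DNAJB9, PDIA3, P4HB, XBP1, CREB3L2, EDEM1, SEL1L, DERL2, CRELD2, MANF, SEC61B, STIP1 and HSPA9. Some of them, P4HB included, passed in alternative fits.

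Other genes of these pathways, in 8 lists of 134 genes, were tested in 116 cases. In LPS over Control, 37 rose (31.9%, beside 18.0% of all genes) and 14 fell (12.1%, beside 16.5%), and 3 and 2 of these were called (4.31%, beside 12.0%). In SeMC over Control 19 rose (16.4%, beside 20.3%) and 18 fell (15.5%, beside 19.1%), which is near the shares of all genes. Of these 0 were called, beside 14.1%. At an unadjusted p with edgeR, 0 of the 116 were past 1.5-fold there, beside 2061 of all genes. In LPS over SeMC 41 were higher (35.3%, beside 27.1%) and 14 lower (12.1%, beside 27.2%), and 6 and 3 of these were called (7.76%, beside 22.9%). ATF3 (chromosome 3, 21534501 to 21543315), a stress-induced transcription factor downstream of ATF4, had 81.7, 76.2 and 81.6 CPM in LPS libraries, 45.9, 49.3 and 42.7 CPM in SeMC libraries and 34.0, 31.7 and 33.4 CPM in Control libraries. All 3 groups were separate, with log2 fold changes of 1.29 (SE 0.069, adjusted p = 1.27e-09) in LPS and 0.48 (SE 0.079, adjusted p = 0.000324) in SeMC, and ATF3 overlaps TMEM206. SEC61A2 (chromosome 1, 6888413 to 6904045), an isoform of the translocon channel, had 198, 194 and 200.4 CPM in LPS libraries, 89.7, 90.8 and 83.9 CPM in SeMC libraries and 81.9, 86.1 and 87.2 CPM in Control libraries, with a log2 fold change of 1.23 (SE 0.053, adjusted p = 1.08e-10) in LPS. SESN2, a stress-induced sestrin and ATF4 target, averaged 50.2 ± 2.60 CPM in LPS, 28.5 ± 2.91 CPM in SeMC and 30.6 ± 2.63 CPM in Control libraries (SD, n = 3 each), with 0.73 (SE 0.082, adjusted p = 5.8e-06) in LPS, and overlaps FAM76A.

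The decreases were led by FKBP5 (chromosome 26, 113126 to 131730), an HSP90 co-chaperone that glucocorticoids induce, which had 110.2, 132 and 134 CPM in LPS libraries, 498, 526 and 537 CPM in SeMC libraries and 390.3, 358 and 392 CPM in Control libraries. Its log2 fold change was -1.59 (SE 0.070, adjusted p = 1.32e-10) in LPS and 0.45 (SE 0.057, adjusted p = 3.75e-05) in SeMC, and that between the treated groups was -2.03 (SE 0.071, adjusted p = 6.45e-11) in LPS over SeMC. It fell in LPS and rose in SeMC, and it overlaps TULP1. STT3B (chromosome 2, 40039384 to 40090011), a catalytic subunit of the oligosaccharyltransferase, had 379.6, 399.6 and 380.5 CPM in LPS libraries, 615, 605 and 593 CPM in SeMC libraries and 602, 601 and 580.2 CPM in Control libraries, with a log2 fold change of -0.61 (SE 0.049, adjusted p = 1.3e-07) in LPS.

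The counts by list stand beside 18.0% of all genes higher and 16.5% lower in LPS over Control, and 20.3% higher and 19.1% lower in SeMC over Control. Of the 7 tested genes of the PERK branch and its targets, 5 rose (71.4%) and 0 fell in LPS, with a median log2 fold change of 0.30, and 2 rose (28.6%) and 1 fell (14.3%) in SeMC. The 5 were ATF4, PPP1R15B, ATF3, NFE2L2 and SESN2. Whether PERK or another signal raised them was not tested. In LPS over Control, EIF2AK3, which encodes PERK (0.11, adjusted p = 0.144), and EIF2S1 (-0.11, adjusted p = 0.307) did not pass the test. DDIT3, PPP1R15A and TRIB3 of the same list had no row under these symbols. Among the further ERAD genes 11 of 19 rose (57.9%) and 3 fell (15.8%) in LPS, and 4 rose (21.1%) and 5 fell (26.3%) in SeMC. Of the 20 tested genes of the translocon and signal peptide cleavage 9 rose (45%) and 4 fell (20.0%) in LPS, and 0 rose and 3 fell (15.0%) in SeMC. The list of the HSP70 and HSP90 cycle was mainly but not only cytosolic, since its 33 genes included the ER proteins SERPINH1, DNAJB12 and DNAJB14. It held 26 tested genes, of which 3 rose (11.5%) and 4 fell (15.4%) in LPS, and 9 rose (34.6%) and 2 fell (7.69%) in SeMC. Directly compared, 4 of them were higher (15.4%) and 8 lower (30.8%) in LPS than in SeMC, beside 27.1% and 27.2% of all genes. This list thus differed from the 14 cytosolic and mitochondrial members, of which 78.6% were higher and 7.14% lower. Of the 8 subunits of the TRiC/CCT chaperonin, which folds actin and tubulin, 1 rose (12.5%) in LPS and 0 passed the test in SeMC, and 3 were higher (37.5%) and 0 lower in LPS than in SeMC. In mitochondrial proteostasis 4 of 10 genes rose (40.0%) in LPS, and 1 rose (10%) and 2 fell (20.0%) in SeMC, and 4 were higher (40.0%) and 0 lower in LPS than in SeMC. The 14 genes of N-glycosylation and glucosidases gave 0 higher and 2 lower (14.3%) in LPS, and 2 higher (14.3%) and 3 lower (21.4%) in SeMC. The 12 UPR regulators and processing genes gave 4 higher (33.3%) and 1 lower (8.33%) in LPS, and 1 higher (8.33%) and 2 lower (16.7%) in SeMC. The 4 higher in LPS were MBTPS1, ERN2 (0.43, adjusted p = 0.000128), TMBIM6 and TXNDC5. The 1 lower was CREB3L1 (-0.54, adjusted p = 0.00013). With 7 to 26 genes tested in a list, 1 gene moves a share by several percent, and no list was tested as a set.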

How the data were processed

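RNA-seq of HD11 cells was analysed in 9 libraries of the LPS, SeMC and Control groups, assigned from the sample labels. The submitters' processing notes name HISAT2, HTSeq and the build GRCg7b, and the table the authors deposited holds raw read counts of each gene, without normalization. Versions, annotation release and strand setting are not given in the sources used here. The members and gene lists were chosen with earlier results of these data known.

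Each comparison used its 6 libraries in edgeR 4.0.16 (R 4.3.3), with TMM factors, a filterByExpr minimum of 10 counts, the quasi-likelihood test and Benjamini-Hochberg adjustment over all genes tested. A gene passed at FDR under 0.05 and was called above 1.5-fold. Levels are CPM on TMM-adjusted library sizes. Coordinates are 1-based, from RefSeq on GRCg7b. Transcript lengths were not used here, so levels were not compared between genes, and ratios show only how groups differ.

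Named genes were the members called, the 8 largest changes per comparison, 11 members fixed by symbol and the 3 largest increases and decreases called in the pathway lists. Other members were named with their values. The alternatives were DESeq2 1.42.0, limma 3.58.1 (voom, or log2 counts plus 1 after quantile normalization), RLE, upper-quartile or no scaling factors, no filter, a block for the replicate number, all 9 libraries in one fit, fold changes above 1.2 or none, and each library left out in turn. The fit after quantile normalization also had no filter on low counts. Its results therefore do not separate the scaling from the change of test and of genes tested. The tests were checked on simulated data with changes above 1.5-fold, scored at FDR under 0.05 and above 1.5-fold. Smaller changes that pass at FDR alone were not covered by that check. The SeMC+LPS libraries, promoter and protein sequences and levels per kilobase were not analysed here. Figures were drawn with Python 3.11.15 and matplotlib 3.10.9.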

Additional observations from a re-analysis of the deposited data

How the results depend on the processing

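The 1 member called in LPS over Control became 0 with library totals alone, 0 with limma on quantile-normalized values, 9 above 1.2-fold, 14 with no minimum and 0 to 1 with a replicate left out. The 14 that rose became 7 with library totals, 4 with quantile normalization and 8 to 11 with a replicate left out. In SeMC over Control, 8 genes were past the test above 1.2-fold and 13 with no minimum, quantile normalization gave 2 higher and 2 lower, and leaving out a replicate gave 4 to 9 higher and 4 to 5 lower. In LPS over SeMC, the 2 lower became 4 with DESeq2, with upper-quartile factors and with all 9 libraries in one fit, 10 with library totals and 5 with quantile normalization. The 16 higher became 9 with library totals and 9 with quantile normalization, and 11 genes were past the test above 1.2-fold and 18 with no minimum. Leaving out a replicate gave 0 to 1 called, 12 to 16 higher and 1 to 3 lower. Quantile normalization turned PDIA6 in LPS over Control to -0.00036, and HSP90AA1 to -0.023 and HSPA8 to -0.0074 in LPS over SeMC. The cause was not tested. The genes that passed under all 15 alternatives were HSP90AB1, HSPD1, HSPH1 and SDF2L1 in LPS over Control, BAG3, DERL1, DNAJA1 and HSF2 in SeMC over Control, and 9 of 18 in LPS over SeMC. Library totals moved the median log2 fold change of all genes to -0.077 in LPS over Control, 0.029 in SeMC over Control and -0.12 in LPS over SeMC. They moved the split of all genes called to 654 higher and 957 lower in LPS over Control, against 797 and 770, and to 1035 and 2058 in LPS over SeMC, against 1349 and 1622. Quantile normalization was run with no filter on low counts. It gave 1770 and 1490 in LPS over SeMC, and 801 and 1149 in SeMC over Control, against 1117 and 733. That fit tested 16136 and 16157 genes, against 12979 and 13146. Dropping the filter alone gave 1589 and 1838 in LPS over SeMC and 1296 and 996 in SeMC over Control. The difference of the summed ER level from Control, 0.089 in LPS and 0.095 in SeMC on the log2 scale, became 0.027 and 0.13 with library totals, and 0.12 in LPS with the mean of log2 levels. That of the cytosolic and mitochondrial sum, 0.12 in LPS and -0.0702 in SeMC, became 0.058 and -0.0398 with library totals.

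With the replicate block, 11 of the 14 genes that rose in LPS over Control remained, PDIA6, EDEM3 and DERL1 being lost, CALR was lost and HERPUD1 and MANF gained in SeMC over Control, and the 18 genes of LPS over SeMC remained. The deviations of same-numbered libraries correlated at -0.195 to -0.0306 for LPS and Control, -0.0133 to 0.0731 for SeMC and Control and -0.0027 to 0.0653 for LPS and SeMC. These values give no sign of pairing by number, but with 3 libraries a group they cannot show that pairing is absent. Depth was lowest in SeMC, and with 3 libraries a group and standard errors of 0.046 to 0.12 the smallest log2 change that passed was 0.13.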
